A study of Drosophila melanogaster with 63 samples.

Results

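The CP190 peaks that remained on chromatin after knockdown of CP190 itself were described in Kc167, a female Drosophila cell line of embryonic origin. The members were all peaks of both lists from anti-CP190 chromatin immunoprecipitation followed by sequencing (ChIP-seq) in CP190 knockdown cells, 1203 and 1280 peaks on the main chromosomes. They were set against the 10553, 10095 and 10467 peaks of the 3 lists from mock-treated cells of the same series. Together the 46 peak lists of the study held 190667 peaks on these chromosomes. The study has 63 samples and asked how NURF301, a subunit of a nucleosome remodeller, relates to the proteins of the gypsy insulator.

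CP190 knockdown cells were transfected with 5 ug of double-stranded RNA against Cp190 and kept for 4 days. NURF301 and Su(Hw) knockdown cells received the same amount of RNA against Nurf301 or su(Hw) for the same time. The mock cells are labelled only as mock. They fall into a mock series and a mock2 series, which the labels tell apart by title alone. The mock series shares the title style of the CP190 and NURF301 knockdowns, and mock2 shares that of the Su(Hw) knockdown. Further lists from these cells were used as other readouts: CP190 after NURF301 knockdown (3 lists), after Su(Hw) knockdown (3) and in mock2 (3); NURF301 after CP190 knockdown (2), in mock (3) and in mock2 (3); Su(Hw) after Su(Hw) knockdown (3), in mock (3) and in mock2 (3); and Mod(mdg4)67.2 in mock (3). The level of CP190 protein left in the cells was not analysed here. A knockdown by transfected RNA lowers a protein without removing its gene, so the cells can keep some of it.

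CP190 is a zinc-finger and BTB-domain protein that does not find most of its sites by itself and is brought there by DNA-binding insulator proteins. At gypsy-type insulators it works with Su(Hw), which binds the DNA, and with Mod(mdg4)67.2, the partner that Su(Hw) recruits. Outside these sites CP190 lies mainly at promoters of active genes, together with other DNA-binding proteins. NURF301 is the largest subunit of NURF, which slides nucleosomes with the ISWI ATPase.

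After CP190 knockdown the CP190 lists held 1203 and 1280 peaks, against 10553, 10095 and 10467 peaks in mock cells. Both knockdown lists were far below all mock lists, with 1241.5 ± 54.4 peaks (SD, n = 2) against 10372 ± 243 peaks (SD, n = 3). The difference was -3.06 on the log2 scale, with p = 0.2 in a two-sided exact permutation test. With 2 lists against 3, 0.2 is the smallest p that this test can give, so no comparison of these groups could pass 0.05.

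The loss was then scored at sites that neither group had chosen, the 7810 regions with a CP190 peak in at least 2 of the 3 mock2 lists. The knockdown lists had a peak at 15.1% and 15.9% of them, and the mock lists at 99.2%, 98.8% and 99.2%. The groups did not overlap, and the difference was -83.5 percentage points (exact permutation p = 0.2, the smallest possible). This share follows the number of peaks: with the mock lists cut to their 1242 highest peaks, as many as the knockdown lists hold on average, it was 15.5% in knockdown and 15.8% in mock lists, a difference of -0.34 points (exact permutation p = 0.6). At the same sites CP190 was found at 66.4%, 50.1% and 52.5% after NURF301 knockdown and at 52.3%, 45.4% and 48.0% after Su(Hw) knockdown. CP190 knockdown therefore left fewer CP190 peaks than either other knockdown in every library. It left 40.8 percentage points less than NURF301 knockdown and 33.1 points less than Su(Hw) knockdown (exact permutation p = 0.2 each, the smallest possible). By title style the Su(Hw) knockdown goes with mock2, in which these sites were chosen, and the CP190 knockdown with mock. A difference between the series therefore cannot be told apart from the difference to Su(Hw) knockdown.

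Merging all peaks that shared at least 1 bp over the 5 lists gave 10777 sites, of which 9637 had a peak in all 3 mock lists and are called mock sites here. Of these, 8314 (86.3%) had no peak in either knockdown list and are called lost. A further 235 had a peak in 1 knockdown list, and 1088 (11.3%) had a peak in both and are called kept. No site had peaks in both knockdown lists without a peak in mock cells. Of the knockdown peaks, 1 lay outside the mock sites, at an end of opa, which encodes a zinc-finger transcription factor: it was in knockdown list 2 and mock list 3 only and is named after its values were seen. Single sites were not tested, because Fisher's exact test on 2 lists against 3 cannot give a p under 0.1.

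The same places were found in both knockdown libraries. Of the peaks in knockdown list 1, 92.7% overlapped a peak of list 2, and of those in list 2, 86.9% overlapped a peak of list 1. Summits of list 1 lay a median of 13 bp from the nearest summit of list 2. They lay 27, 29 and 31 bp from the nearest summit of the 3 mock lists, and 73.6%, 72.4% and 69.0% of them were within 50 bp of one. The peaks that remained thus sat near the centres of mock peaks.

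The remaining peaks were narrow. Their median width was 278 and 286 bp in the knockdown lists, against 525, 558 and 606 bp in the mock lists. The median -log10 q was 38.6 and 37.8 in the knockdown lists and 146, 147 and 153 in the mock lists. The median fold enrichment at the summit was 9.0 and 8.46 in the knockdown lists and 8.45, 8.22 and 7.28 in the mock lists. Fold enrichment and q are the values of the authors' peak caller, relative to each library's own background, and serve here only to rank and filter peaks within a list. Ranks are given as percentiles, with 100 for the highest peak of a list, and because the lists differ in length a different percentile in another list is no change in binding. Mock list 3 stood apart in its ranks, so group summaries of mock ranks are given for each mock list.

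Kept sites were no more frequent at the highest fold enrichment in mock cells than over all mock sites. Their median percentile of fold enrichment was 59.3, 58.0 and 36.5 in mock lists 1, 2 and 3, against 52.2, 49.9 and 56.6 for lost sites. The order of the groups was therefore not the same in all lists: kept sites were above lost sites in mock lists 1 and 2 and below them in mock list 3. In the decile of sites with the highest fold in mock list 1, 2 or 3, 9.96%, 10.9% and 2.70% were kept, against 11.3% of all mock sites. Of the 100 highest sites of each mock list, 12, 14 and 1 were kept. Of the 100 kept sites that ranked highest in the knockdown lists, 7, 9 and 3 had a percentile of 90 or more in mock lists 1, 2 and 3, and their median percentile there was 47.9, 47.9 and 19.4.

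Kept sites had more significant and wider mock peaks than lost sites. The median percentile of -log10 q in mock lists 1, 2 and 3 was 81.1, 82.0 and 66.1 at kept sites, 85.2, 85.7 and 80.5 at sites present in 1 knockdown list and 47.8, 45.5 and 50.01 at lost sites. In the decile of highest -log10 q, 28.9% and 32.0% of sites were kept with ranks from mock lists 1 and 2. With ranks from mock list 3 the kept share was highest in decile 7, at 19.8%, and was 11.3% in the highest decile, the share over all mock sites. The median peak width in mock lists 1, 2 and 3 was 855, 866 and 925 bp at kept sites and 508, 529 and 587 bp at lost sites. In the decile of narrowest mock sites none was kept, and in that of the widest 34.5% were. A wide peak also has more bases in which a peak of another list can fall, and its part in this result was not tested. With every peak reduced to 150 bp on each side of its summit, which gives all peaks the same width, 1065 sites were kept. This total does not tell whether the kept share still differs with the width of the mock peak.

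**Figure D1:**
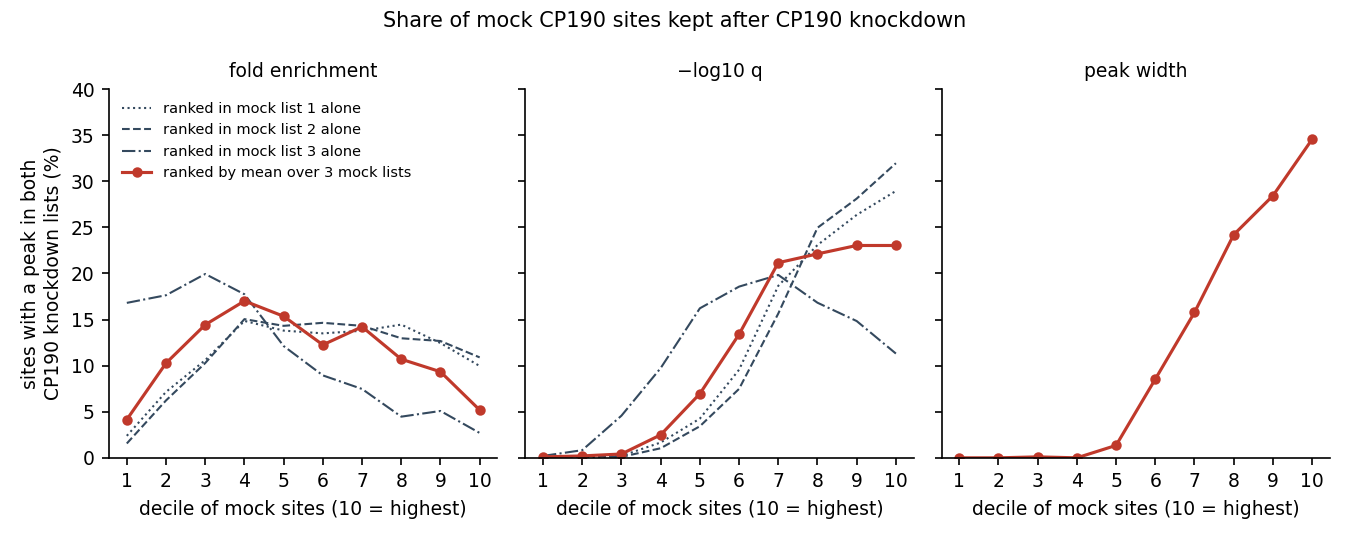
Share of mock CP190 sites with a peak in both CP190 knockdown lists (y axis, percent) by decile of mock fold enrichment, mock -log10 q and mock peak width (x axis, 10 = highest), with sites ranked by the mean over 3 mock lists (red) or in 1 mock list (thin lines). The share by mean fold enrichment was highest in the fourth decile, at 17.0%, and lower at both ends, while the share by width went up to 34.5%. The line for mock list 3 differs from those for lists 1 and 2.

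Kept and lost sites differed in the other proteins found there. A mock site was counted as having NURF301 or Su(Hw) where at least 4 of the 6 mock and mock2 lists of that protein had a peak there, and as having Mod(mdg4)67.2 where at least 2 of its 3 lists did. NURF301 was at 97.6% of kept sites and 59.7% of lost sites, Mod(mdg4)67.2 at 43.4% and 17.1%, and Su(Hw) at 43.6% and 37.7%. Of the 1088 kept sites, 596 had NURF301 only and 433 had NURF301, Su(Hw) and Mod(mdg4)67.2. The remaining 59 were spread over the other classes.

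**Figure D2:**
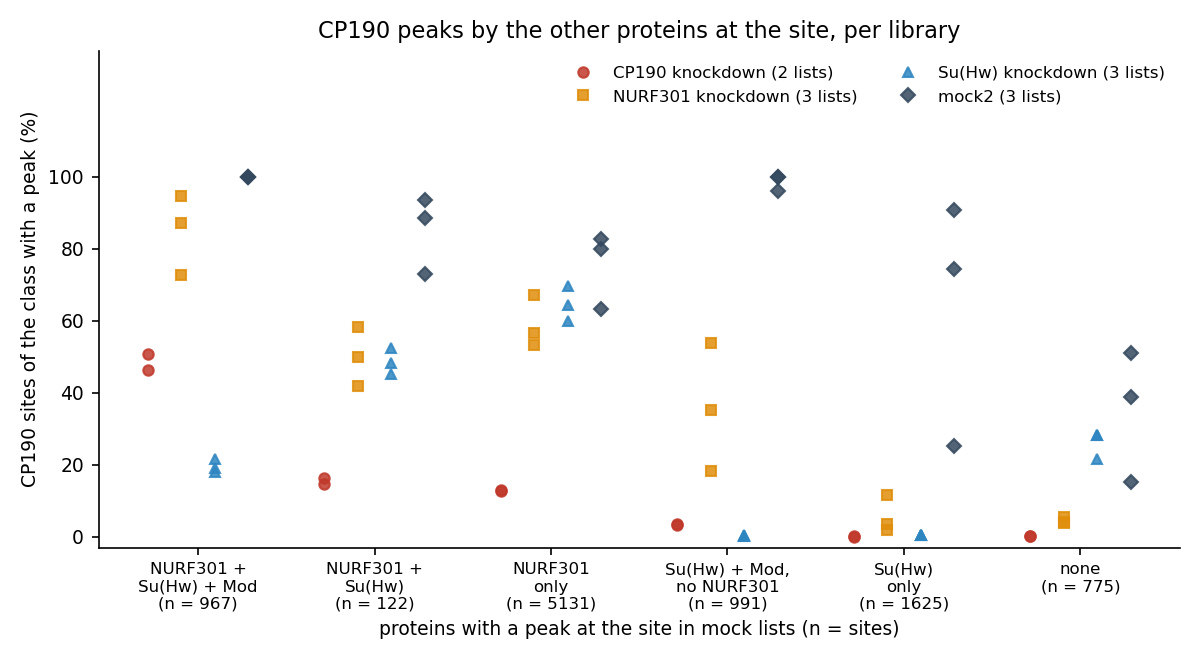
Share of mock CP190 sites (y axis, percent) with a CP190 peak in each library, by the proteins that share the site (x axis, with the number of sites), after CP190, NURF301 or Su(Hw) knockdown and in mock2. The classes of 21 and 5 sites are not shown. Of those shown, the class with NURF301, Su(Hw) and Mod(mdg4)67.2 was highest after CP190 knockdown, at 46.4% and 50.7%, and sites with Su(Hw) but no NURF301 were near 0.

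Of the 967 sites that NURF301, Su(Hw) and Mod(mdg4)67.2 shared with CP190, 44.8% were kept, against 11.3% of all mock sites. The knockdown lists had a peak at 46.4% and 50.7% of them, and the mock2 lists at 99.8%, 100% and 100%. In the class with NURF301 only, 11.6% of 5131 sites were kept, close to the share over all mock sites, with peaks at 12.8% and 13.1% in the knockdown lists and at 63.2%, 80.0% and 82.8% in mock2. The class with NURF301 and Mod(mdg4)67.2 but no Su(Hw) was small, with 16 of 21 sites kept. With NURF301 and Su(Hw) but no Mod(mdg4)67.2, 17 of 122 sites were kept.

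Where Su(Hw) and Mod(mdg4)67.2 lay without NURF301, CP190 was nearly always lost. Of these 991 sites, 23 were kept (2.32%), with peaks at 3.13% and 3.63% in the knockdown lists and at 96.2%, 100% and 100% in mock2. In mock lists 1, 2 and 3 their median fold percentile was 76.0, 70.3 and 74.3, above the 63.9, 62.7 and 51.0 of the class with all 3 proteins and the 53.9, 54.8 and 57.3 of NURF301 only. The order was another by -log10 q. By the mean percentile over the 3 mock lists their median was 65.7, below the 78.2 with all 3 proteins and above the 59.5 with NURF301 only. Of the 1625 sites with Su(Hw) only, 1 was kept, and of the 775 sites with none of the 3 proteins, 2 were. Mock peaks had a median width of 856 bp where all 3 proteins lay, against 650 bp for NURF301 only, 603 bp for Su(Hw) with Mod(mdg4)67.2 and 422 bp for Su(Hw) only. Among sites with mock peaks of 600 to 1000 bp, the kept shares were 42.5% with all 3 proteins, 17.6% with NURF301 only and 4.16% with Su(Hw) and Mod(mdg4)67.2, so the order of the classes was the same.

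The other knockdowns left CP190 at other shares of the same classes. After NURF301 knockdown, CP190 was found at 94.6%, 72.8% and 87.1% of sites with all 3 proteins, at 67.1%, 56.7% and 53.2% of those with NURF301 only and at 53.9%, 18.3% and 35.2% of those with Su(Hw) and Mod(mdg4)67.2. After Su(Hw) knockdown, it was found at 21.7%, 18.0% and 19.1% with all 3 proteins, at 69.6%, 60.0% and 64.3% with NURF301 only and at 0.505%, 0.202% and 0.303% with Su(Hw) and Mod(mdg4)67.2. The class with all 3 proteins was thus above that with NURF301 only in every list after CP190 or NURF301 knockdown and in mock2, and below it in every list after Su(Hw) knockdown. These shares have a ceiling at 100% and the knockdowns left different numbers of peaks, so the gaps between classes were not compared between knockdowns.

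Within classes, the kept share ran in opposite directions with the significance of the mock peak. The mock sites were cut into quintiles by their mean -log10 q percentile. With NURF301, Su(Hw) and Mod(mdg4)67.2 at the site, 63.2% were kept in the middle quintile (155 sites), 53.1% in the fourth (356 sites) and 30.1% in the highest (439 sites). The second quintile had 13 of only 16 sites kept, and the lowest held 1 site. With NURF301 only, the kept share was 7.65% in the middle quintile, 18.9% in the fourth and 24.4% in the highest. With quintiles from mock list 1, 2 or 3 alone, the share with all 3 proteins was 62.4%, 53.2% and 62.7% in the middle quintile and 33.6%, 34.4% and 23.8% in the highest. For NURF301 only, ranks from mock list 3 gave 16.2% in the middle quintile and 12.5% in the highest, so there the higher share in the highest quintile rested on mock lists 1 and 2.

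**Figure D3:**
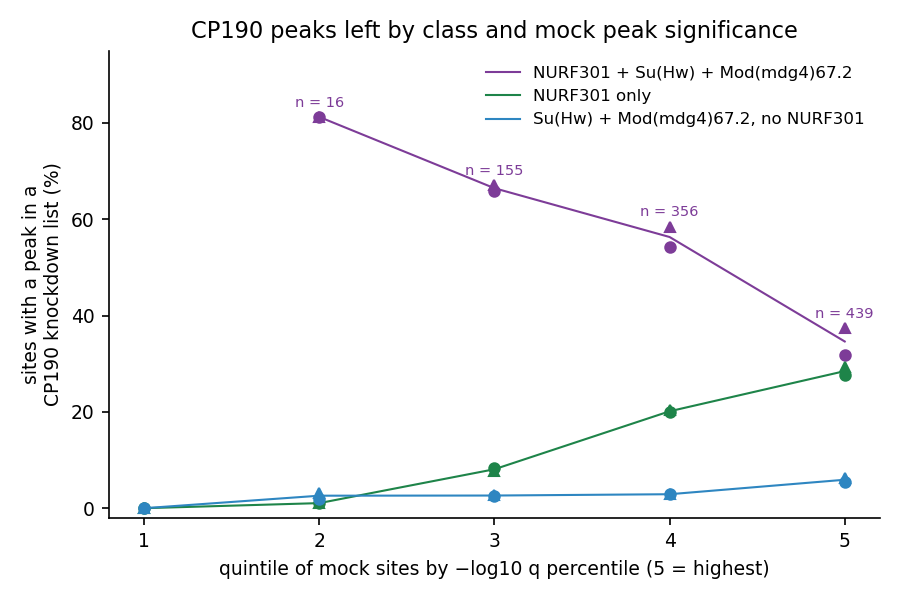
Share of sites with a CP190 peak in knockdown list 1 (circles) and list 2 (triangles) on the y axis (percent) by quintile of the mock -log10 q percentile (x axis, 5 = highest), for 3 classes of sites; lines join the mean of both lists, n gives the sites of the class with all 3 proteins, and points with fewer than 10 sites are left out. In the highest quintile the lists reach 31.9% and 37.4% with all 3 proteins, 27.6% and 29.3% with NURF301 only and 5.45% and 6.36% with Su(Hw) and Mod(mdg4)67.2.

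Kept sites were more often within 500 bp of a gene end, with location scored from the whole site. Their mock peaks were also wider, at a median of 888 bp against 544 bp at lost sites, and a wider site reaches further. The part of width was not tested. Of the kept sites, 72.4% were within 500 bp of an annotated end of a protein-coding gene, 17.5% further inside a gene and 10.1% between genes, against 56.0%, 30.1% and 13.9% of the lost sites. The class with NURF301 only lay at gene ends in 85.7% of its sites, and there the kept share was 11.8%, against 8.36% inside genes and 16.9% between genes. With all 3 proteins the kept share was 49.5% at gene ends, 44.9% inside genes and 33.8% between genes. Summits of the knockdown peaks lay within 100 bp of a gene end in 34.7% and 34.2% of cases, against 33.6%, 34.6% and 32.9% in the mock lists. Within 500 bp these shares were 61.5% and 61.4% in the knockdown lists and 50.8%, 52.2% and 51.1% in the mock lists. The kept share was alike on the chromosome arms, between 10.0% on 2L and 12.6% on X, with 8 of 70 sites kept on chromosome 4.

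Within the kept sites, the order by fold enrichment repeated between the knockdown lists and did not follow that of the mock lists. Spearman's rho over the 1088 kept sites was 0.82 between the knockdown lists. It was 0.82, 0.72 and 0.71 between pairs of mock lists, and between -0.31 and -0.09 for the 6 pairs of a knockdown with a mock list. These points share their libraries, so the values are descriptions. For the mean ranks rho was -0.21 over the 433 kept sites with all 3 proteins and -0.19 over the 596 with NURF301 only. The median percentile in knockdown lists 1 and 2 was 50.5 and 55.5 with all 3 proteins and 57.6 and 57.4 with NURF301 only. It was 22.2 and 31.3 for the 23 kept sites with Su(Hw) and Mod(mdg4)67.2, which were thus also low in the knockdown lists.

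**Figure D4:**
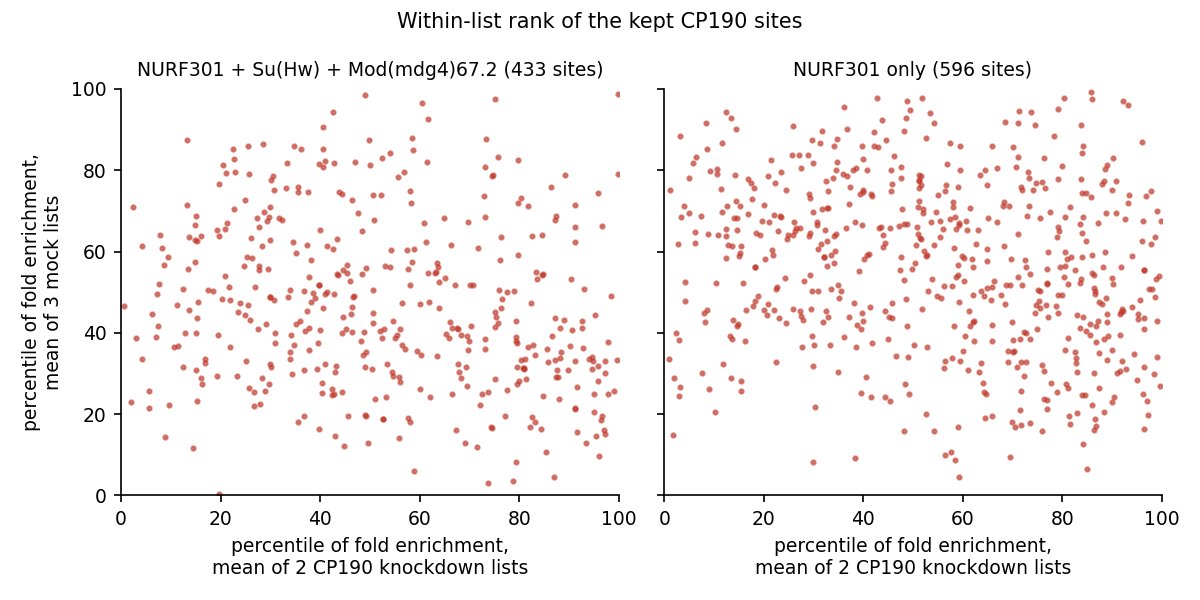
Mean percentile of fold enrichment in the 2 CP190 knockdown lists (x axis) against that in the 3 mock lists (y axis) at kept sites with NURF301, Su(Hw) and Mod(mdg4)67.2 (left, 433 sites) or NURF301 only (right, 596 sites), 1 point per site. The points fill most of both panels, with rho of -0.21 and -0.19.

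The highest peak of knockdown list 1, on chr3L:18848313-18849012, lay 2046 bp from Indy, which encodes a citrate transporter. It stood at percentile 100 and 99.8 in the knockdown lists and at 77.5, 87.8 and 37.5 in the mock lists, so it led knockdown list 1 and was near the top of list 2. Of the proteins scored it had NURF301 only. A site inside Wdr62, a gene for a spindle-associated protein, on chr2L:1909387-1910364, had all 3 proteins and stood at 99.8 and 99.9 in the knockdown lists and at 85.9, 94.0 and 57.0 in the mock lists. The site inside CG43658 on chrX:17531338-17533061 was at 99.8 and 100 in the knockdown lists and at 99.3, 99.1 and 97.98 in the mock lists. It was the one of the 15 highest kept sites that was also among the highest in every mock list.

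Most of the 15 highest kept sites had middling places in mock cells. The site inside CG43693 on chr3L:11047100-11048473 was at 99.9 and 99.5 in the knockdown lists and at 34.9, 33.9 and 30.9 in the mock lists. The site at an end of raskol, which encodes a Ras GTPase-activating protein, was at 99.6 and 99.5 in the knockdown lists and at 37.1, 38.4 and 5.5 in the mock lists. A site inside Tet, a gene for a dioxygenase that acts on methylated nucleotides, was at 97.7 and 99.8 in the knockdown lists and at 33.5, 31.9 and 7.8 in the mock lists. The Tet site and a site inside Hr4, a nuclear receptor gene, belonged to the small class with NURF301 and Mod(mdg4)67.2 but no Su(Hw).

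The other 8 of the 15 lay at or in prage and Adar (the RNA-editing enzyme), CG46458, CG1354, RabGGTa (a Rab prenyltransferase subunit), GstS1 (a glutathione S-transferase), bif and PhKgamma, Eip75B (an ecdysone-induced nuclear receptor) and CG8249. Their mean percentiles were between 98.6 and 99.5 in the knockdown lists and between 25.6 and 69.9 in the mock lists. By class, 9 of the 15 had NURF301 only, 4 had all 3 proteins and 2 had NURF301 and Mod(mdg4)67.2.

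The kept sites whose percentile was furthest above the mock one were mostly sites of all 3 proteins. At an end of Fmr1, which encodes an RNA-binding regulator of translation, the site on chr3R:10100233-10101181 was at 96.9 and 95.2 in the knockdown lists and at 13.4, 9.4 and 6.6 in the mock lists. Sites at an end of TER94, an AAA ATPase gene, and of CG43759, and one that lay 7868 bp from the Hox gene abd-A, also had all 3 proteins. The site near abd-A, on chr3R:16798037-16799346, was at 86.2 and 87.9 in the knockdown lists and at 7.4, 6.2 and 0.2 in the mock lists, which placed it among the lowest mock peaks. The last of the 5, 8375 bp from UQCR-11, had none of the 3 proteins and was at 91.2 and 94.2 in the knockdown lists and at 12.5, 11.1 and 2.9 in the mock lists.

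At the other end, 4 of 5 sites had NURF301 only and lay at gene ends, while 54.8% of all kept sites had NURF301 only. With 5 sites in each direction, these counts describe the named sites alone. The site between CTCF, which encodes another DNA-binding insulator protein, and pst, on chr3L:7356213-7357068, was at 6.1 and 0.2 in the knockdown lists and at 77.0, 97.9 and 90.1 in the mock lists. The site at an end of the ribosomal protein gene RpL19 was at 7.4 and 9.6 in the knockdown lists and at 92.6, 87.0 and 94.97 in the mock lists. The others lay at Cog8, a gene of a Golgi tethering complex, and Poc1, a centriole protein gene, and inside CG33543, where Su(Hw) and Mod(mdg4)67.2 lay without NURF301.

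Of the 10 highest lost sites at gene ends and the 10 highest elsewhere, 17 had NURF301 only, 1 had all 3 proteins, 1 had Su(Hw) only and 1 had none. Over all lost sites 52.9% had NURF301 only, but the choice of 10 sites at gene ends favours that class, so the count is a description of these 20. The 10 sites at gene ends had mean mock percentiles between 99.0 and 99.8. They included an end of numb, the inhibitor of Notch that is split unequally in asymmetric divisions, at 99.9, 99.2 and 99.9 in the mock lists, and an end of ey, the fly Pax6 gene, at 99.8, 98.6 and 99.6. Further ones lay at hec, a receptor gene, at Fign and CG8837, and at Tsp3A, a tetraspanin gene. The highest away from gene ends included sites inside Msp300, a nesprin gene, at 99.7, 99.7 and 99.9, and inside Col4a1, a basement membrane collagen gene, at 99.8, 99.6 and 99.2 in the mock lists. The site with all 3 proteins lay 24765 bp from Tollo and was at 99.7, 99.6 and 99.4 in the mock lists.

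At the Cp190 gene itself, whose transcript the double-stranded RNA matched, the 1 site was lost. It lay at the end shared with CG4338, on chr3R:15274617-15275571, had NURF301 only, and stood at 54.8, 37.5 and 36.1 in the mock lists.

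Genes were counted as having a kept site where a kept site lay within 500 bp of an end: of 8160 protein-coding genes with a mock site there, 1273 did (15.6%). Of 18 insulator protein genes with a mock site, 4 had a kept one (22.2%): su(Hw), CTCF, Chro and pzg. At su(Hw), where the site shared with Polr2I had all 3 proteins, the percentiles were 71.0 and 63.8 in the knockdown lists and 18.5, 14.7 and 14.9 in the mock lists. At Chro, which encodes a chromodomain protein of interbands, they were 36.5 and 42.9 in the knockdown lists and 54.3, 74.0 and 71.5 in the mock lists. The sites at mod(mdg4), BEAF-32 and Cp190 were lost. Among 22 chromatin remodeller genes with a mock site, kis, which encodes a CHD-family protein, had the 1 kept site (4.55%), and at E(bx), the gene of NURF301, the site was in 1 knockdown list.

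Cell cycle genes had a kept site in 10 of 29 cases (34.5%): CycB, Cdk4, stg, E2f1, Dp, fzr, Orc1, Mcm7, gnu and dup. The site at fzr, an activator of the anaphase-promoting complex, had all 3 proteins and was at 96.3 and 98.3 in the knockdown lists and at 34.3, 34.4 and 21.8 in the mock lists. The site at E2f1 and InR, with NURF301 only, was at 76.7 and 75.9 in the knockdown lists and at 23.1, 35.2 and 12.6 in the mock lists. Sites at dup and Orc1, which act in replication licensing, were in the lower part of the knockdown lists, at 3.9 and 6.2 for dup and 3.2 and 20.1 for Orc1, against 71.6, 69.0 and 68.1 for dup and 72.7, 47.7 and 89.2 for Orc1 in the mock lists. The sites at CycA, CycE, Cdk1 and PCNA were lost.

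Of 85 ribosomal protein genes with a mock site, 23 had a kept one (27.1%). Among them RpS28a was at 94.9 and 88.4 in the knockdown lists and at 52.5, 56.0 and 25.7 in the mock lists, and RpL22 at 84.1 and 93.9 in the knockdown lists and at 38.2, 42.6 and 19.4 in the mock lists. tRNA genes, short genes transcribed by RNA polymerase III, had a kept site within 500 bp in 31 of 92 cases (33.7%). Neighbouring tRNA genes can share a site and were counted by distance to the whole gene, so this share has no counterpart among the protein-coding genes to be read against.

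Of 18 annotated hemocyte marker genes, which are active in the blood cell lineage that Kc167 cells resemble, only 6 had a mock site. A kept site lay at 4 of these (66.7%), Hml, srp, ush and Pvr, against 15.6% over all genes with a mock site. The sites at gcm2 and crq were lost. The site at srp, the GATA factor of that lineage, had all 3 proteins and was at 81.9 and 84.5 in the knockdown lists and at 45.9, 39.96 and 17.8 in the mock lists. Of 5 loci known from insulator studies with a mock site, 4 had a kept one (80%, against the same 15.6%): y, ct, N and fs(1)h. The site at w was lost. Both lists are short, so these shares are descriptions. The site at y, a classical locus of gypsy insulator studies, was at 12.1 and 28.3 in the knockdown lists and at 64.3, 40.8 and 39.997 in the mock lists. That at an end of ct had NURF301 and Mod(mdg4)67.2 but no Su(Hw). It was at 92.9 and 92.1 in the knockdown lists and at 55.3, 58.3 and 10.8 in the mock lists. Another kept site, inside ct, had all 3 proteins and was at 88.9 and 93.6 in the knockdown lists. The site at kirre and N was at 90.1 and 93.7 in the knockdown lists and at 41.6, 63.0 and 30.9 in the mock lists.

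The other lists were short of kept sites or near the share over all genes. None of 11 heat shock genes with a mock site had a kept one, and the 1 Hox gene with a mock site at its end, Ubx, had lost it. These counts leave out sites away from gene ends, and kept ones lay inside the Hox genes Abd-B and pb. In the knockdown lists they were at 33.7 and 81.5 for Abd-B and at 84.5 and 76.2 for pb. Kept sites were at 2 of 10 JAK/STAT pathway genes (20%), the inhibitors Socs36E and Socs16D, at 3 of 17 Toll and Imd pathway genes (17.6%), Myd88, Tak1 and PGRP-LB, and at 1 of 7 neuronal marker genes (14.3%), brp. No histone cluster gene of 111 annotated had a mock site within 500 bp.

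In CP190 knockdown cells NURF301 was found more often at kept than at lost CP190 sites, as it was in mock cells. In NURF301 lists from CP190 knockdown cells, 73.4% and 77.0% of kept sites had a NURF301 peak, and 36.6% and 37.9% of lost sites did. In mock cells the shares were 98.5%, 98.6% and 83.6% at kept sites and 64.5%, 63.0% and 46.0% at lost sites. In mock2 they were 99.3%, 77.3% and 97.98% at kept sites and 63.7%, 38.7% and 61.5% at lost sites. Mock2 list 2, which with 4608 peaks was about as long as the 4403 and 4574 of the knockdown lists, thus had nearly the same shares as they did.

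Split by class, NURF301 lists of CP190 knockdown cells had a peak at 51.0% and 54.3% of kept and 8.68% and 11.3% of lost sites with all 3 proteins. The shortest NURF301 lists of mock cells were mock list 3, with 5449 peaks, and mock2 list 2, with 4608. They had one at 71.1% and 54.3% of these kept sites and at 32.5% and 21.0% of these lost sites. With NURF301 only, the knockdown lists had a peak at 91.6% and 95.5% of kept and 67.4% and 69.4% of lost sites, and mock list 3 and mock2 list 2 at 96.0% and 96.5% of kept and 82.4% and 69.9% of lost sites. The remaining 4 mock and mock2 lists were at 99.5% or more in these classes, a value that the choice of sites with NURF301 in at least 4 of 6 such lists largely sets, so no test was made here.

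**Figure D5:**
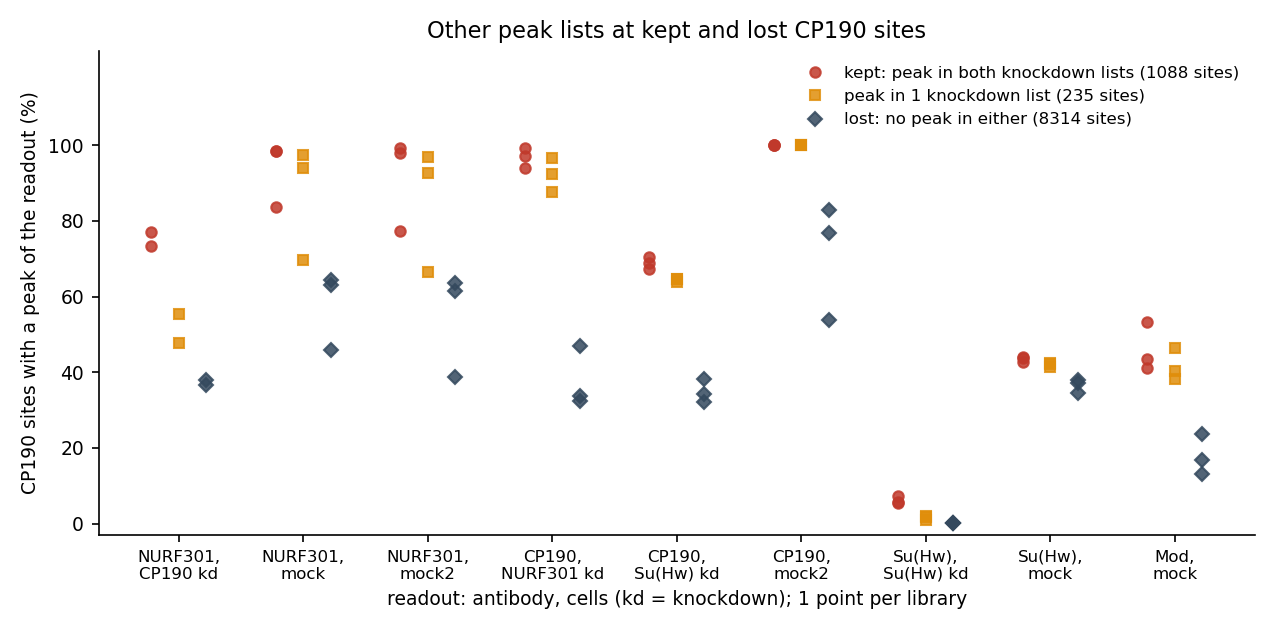
Share of CP190 sites (y axis, percent) with a peak in each library of 9 other readouts (x axis) at sites kept, present in 1 list or lost after CP190 knockdown. Every library of CP190 after NURF301 knockdown is at 93.9% or more at kept sites and at 47.0% or less at lost sites.

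Kept sites had a CP190 peak more often than lost sites in the other knockdowns, though kept and lost sites differ in their classes. After NURF301 knockdown, 99.2%, 93.9% and 97.1% of kept sites had a CP190 peak, against 47.0%, 32.5% and 33.8% of lost sites. After Su(Hw) knockdown, 70.4%, 67.3% and 68.8% of kept sites had one, against 38.2%, 32.2% and 34.2% of lost sites. All 3 mock2 lists had a CP190 peak at 100% of the kept sites, against 53.9%, 76.8% and 82.9% of lost sites. At the 596 kept sites with NURF301 only, all 3 lists after Su(Hw) knockdown had a CP190 peak at 100%. At the 433 kept sites with all 3 proteins, 27.0% ± 3.70 (SD, n = 3) had one after Su(Hw) knockdown and 94.996% ± 4.98 (SD, n = 3) after NURF301 knockdown. Over all mock sites with all 3 proteins, kept or not, the share after Su(Hw) knockdown was 21.7%, 18.0% and 19.1%. With NURF301 only it was 69.6%, 60.0% and 64.3%. The split after Su(Hw) knockdown by whether Su(Hw) lay there was thus one of the whole classes, not of kept sites alone.

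Summits of the remaining CP190 peaks had a NURF301 summit nearby more often than mock CP190 summits did. A summit of NURF301 mock list 1, 2 or 3 lay within 50 bp of 75.6%, 75.6% and 60.0% of the summits in knockdown list 1 and of 74.4%, 74.5% and 58.9% of those in knockdown list 2. For CP190 mock list 1 these shares were 49.5%, 47.5% and 32.6%. A Su(Hw) summit of mock list 1 lay within that distance of 32.3% and 33.8% of summits in the knockdown lists. In CP190 mock list 1 this share was 33.0%, so Su(Hw) summits were not more frequent there. Summits of Mod(mdg4)67.2 were more frequent, as those of NURF301 were. With Mod(mdg4)67.2 mock lists 1, 2 and 3, the shares were 34.2%, 39.9% and 31.8% in knockdown list 1. They were 35.2%, 41.25% and 33.1% in knockdown list 2, against 16.4%, 22.25% and 13.2% in CP190 mock list 1. Summits of the 2 NURF301 lists from CP190 knockdown cells lay within 50 bp of 48.5% and 54.4% of summits in knockdown list 1, against 23.1% and 25.0% in CP190 mock list 1. These shares were not tested. Kept and lost sites also differ in their classes, with NURF301 at 97.6% and 59.7% and Mod(mdg4)67.2 at 43.4% and 17.1%. Summit distances were not compared within classes.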

How the data were processed

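The authors called peaks in each ChIP-seq library separately and deposited lists of peaks. The tools were MACS2 2.2.7.1, Picard 2.25.2, Bowtie2 2.4.2 and SAMtools 1.12, per the submitters' processing notes; their settings, the control library and the genome build are not given in the sources used here. The authors' deposited values are a ratio, the fold enrichment at the summit, and a -log10 q. The lists hold no read numbers, so the depth of each library is unknown and a missing peak means only that none passed the authors' threshold.

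From these, starts were made 1-based, 6 main chromosomes were kept, and peaks were merged at 1 bp with Python 3.11.15, pandas 2.3.3 and numpy 2.4.6. Sequence names and extents match Release 6, whose RefSeq annotation gave gene names and neighbours without strand for 13922 protein-coding genes. Groups follow the sample titles; nothing says that replicates are separate cultures, so p-values measure only the spread between these samples. Peak numbers and recovery were compared with two-sided exact permutation tests; code was tested on simulated lists. Members and the 13 gene lists were chosen with earlier results of these data known. Sites named are the 15 highest kept, the 10 highest lost at gene ends and the 10 elsewhere, the 5 kept sites with the largest percentile difference in each direction, kept sites at listed genes and sites at Cp190; of these, some are given as counts. Alternatives were a q threshold, summit windows, other mock sets and leaving out libraries.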

Additional observations from a re-analysis of the deposited data

How the results depend on the processing

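Of 92 alternative values, 76 stayed within the limits set for direction, threshold or size; 1 of these is the recovery at equal list length, whose difference shrank to -0.34 points. The difference in peak number stayed between -3.11 and -3.02 (log2) and that in recovery between -84.0 and -83.1 points when each library was left out. With mock and mock2 as controls they were -2.83 and -72.4 (exact permutation p = 0.0714 each, the smallest possible). In a replicate block, which paired equal numbers, they were -3.06 and -83.5 (exact sign-flip p = 0.5 each, the smallest for 2 pairs). Rank deviations of the pairs correlated at -0.077, and the labels do not say that numbers mark a shared batch. With mock lists cut to their 1242 highest peaks, 23 sites were kept, and recovery was nearly equal in these lists of like length. With 150 bp summit windows, 29 sites were in knockdown lists only, against 0 with whole peaks. By -log10 q the median mock percentile of kept sites was 76.7; without mock replicate 3 it was 58.2 by fold. Class shares, with alternatives chosen after seeing the data, were 44.4 to 50.7% (all 3 proteins), 11.4 to 13.1% (NURF301 only) and 2.31 to 3.63% (Su(Hw) and Mod(mdg4)67.2) when libraries were left out. They were 33.7%, 9.97% and 0.909% at a -log10 q of at least 20. NURF301 only gave 12.2% and Su(Hw) with Mod(mdg4)67.2 gave 3.65% with summit windows, and 17.6% and 4.16% at 600 to 1000 bp. All 3 proteins gave 39.3% with partner sites from the mock series alone. The order of the classes held in each, and causes were not tested. Depth is unknown, which limits what an absent peak shows.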

Other observations

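A few Su(Hw) peaks also remained after knockdown of Su(Hw) itself, 74, 77 and 96 in its 3 lists, and most lay at CP190 sites kept after CP190 knockdown. At kept CP190 sites lay 63, 60 and 78 of them (85.1%, 77.9% and 81.3%), against 9, 13 and 13 at lost sites. Kept sites were 11.3% of all mock sites, but 44.8% of those with NURF301, Su(Hw) and Mod(mdg4)67.2. That class held 61, 57 and 75 of the kept sites with such a peak, so its share is the closer one to read against. In all 3 lists after Su(Hw) knockdown, 44 kept sites had a Su(Hw) peak. Of these, 42 had NURF301, Su(Hw) and Mod(mdg4)67.2 and 2 had Su(Hw) and Mod(mdg4)67.2, and their median percentile was 81.1 in the CP190 knockdown lists and 32.3 in the mock lists. They included the sites inside CG43693 and CG46458 and at an end of TER94 named above, one inside klar, which encodes a protein of nuclear and lipid droplet transport, and one that lay 686 bp from upd2, a ligand of the JAK/STAT pathway.

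NURF301 peaks left after NURF301 knockdown were 253, 1 and 24 on the main chromosomes. Of these, 62, 0 and 0 lay at kept CP190 sites and 174, 0 and 23 at lost ones, and the libraries differed too widely to be described together.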
